A study of Mus musculus with 11 samples.

Results

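Interferon-stimulated genes were followed in C2C12 cells, a mouse myoblast line from ATCC, after infection with adenovirus. The 9 genes Ifit1, Ifit2, Ifit3, Isg15, Stat2, Irf7, Irf9, Parp14 and Ddx58 were taken by symbol, and all 9 were found among the 21677 genes counted over exons and the 18824 genes counted over introns. An adenovirus carried either a short hairpin RNA against Zc3h10 under a U6 promoter (shZc3h10) or a scrambled hairpin (scramble), at a multiplicity of infection of 100 in both cases, in a series on the part that Zc3h10 plays in mitochondria. Confluent cells then received 300 µM 4-thiouridine (4sU) for 30 min. RNA that had taken up 4sU, called 4sU RNA here, was recovered through biotin and streptavidin, and a part of the harvest was kept as total RNA. There were 3 libraries of 4sU RNA labelled shZc3h10 and 2 labelled scramble, and 3 libraries of total RNA under each label. Every group thus carried an adenovirus and 4sU, and none of the 11 libraries is labelled as coming from uninfected cells. What infection by itself did to these genes therefore cannot be read from the levels below, which are given for both hairpins before any difference between them.

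A cell that detects foreign nucleic acid makes type I interferon, which binds the receptor encoded by Ifnar1 and Ifnar2 on the same cell and its neighbours. The kinases JAK1 and TYK2 then phosphorylate STAT2, which acts with IRF9 in a factor that binds interferon-stimulated response elements in the promoters of its targets. Ddx58 encodes RIG-I, a sensor of viral RNA, and Irf7 encodes a factor that amplifies interferon transcription. Ifit1, Ifit2 and Ifit3 encode proteins that bind viral RNA or each other, Isg15 encodes a ubiquitin-like modifier, and Parp14 encodes a mono-ADP-ribosyltransferase.

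The response element is a short sequence, and its placing differed among the 9 genes. RefSeq promoter windows of build GRCm38.p6, each from 250 bases before to 50 bases after a start site, were matched by symbol for 8 of the 9 genes, which have 10 windows between them. Parp14 was not matched. The windows were searched on both strands for the core of the element, GAAANNGAA, and for the gamma-activated site TTCNNNGAA. The core was found in 5 of the 8 genes, against 9.76% of all 27025 genes and 8.56% of all 32851 windows in the table. Ifit1, Ifit3 and Isg15 had 3 matches each, a number of at least 2 being held by 0.624% of all windows. Stat2 and Ddx58 had 1 match each, starting 221 bases before and at base 3 after the start site. No core match was found in either window of Ifit2, in either window of Irf9 or in that of Irf7. A gamma-activated site was found only in Ifit2, 241 bases before its first start site, against 8.30% of all windows, and no window of these genes held both motifs. The 160 bases before the start site are printed for the 3 genes with several core matches and for Ifit2, which had no core match. Core matches on either strand are in capitals, and overlapping matches are run together. They lie at chr19:34640729-34640888 (plus strand) for Ifit1, chr19:34583369-34583528 (plus strand) for Ifit3, chr4:156200819-156200978 (minus strand) for Isg15 and chr19:34550534-34550693 (plus strand) for the first start site of Ifit2.
Ifit1: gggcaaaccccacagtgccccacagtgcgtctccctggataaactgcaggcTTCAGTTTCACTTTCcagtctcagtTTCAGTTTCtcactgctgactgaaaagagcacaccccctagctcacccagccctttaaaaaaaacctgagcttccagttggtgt
Ifit3: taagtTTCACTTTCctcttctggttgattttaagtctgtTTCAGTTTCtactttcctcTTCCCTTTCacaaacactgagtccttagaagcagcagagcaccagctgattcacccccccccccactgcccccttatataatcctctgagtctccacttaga
Isg15: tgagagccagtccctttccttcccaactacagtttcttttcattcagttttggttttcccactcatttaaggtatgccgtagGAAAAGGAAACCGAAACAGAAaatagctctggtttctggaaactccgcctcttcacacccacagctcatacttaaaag
Ifit2: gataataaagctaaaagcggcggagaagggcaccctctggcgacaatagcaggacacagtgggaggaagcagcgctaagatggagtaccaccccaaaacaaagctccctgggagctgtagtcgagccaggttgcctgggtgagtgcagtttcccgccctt
In Ifit1 the matches started 109, 103 and 84 bases before the start site, and in Ifit3 they started 155, 121 and 102 bases before it, all on the opposite strand. In Isg15 they overlapped on the gene's own strand and started 78, 72 and 66 bases before the start site. A match is a run of letters only, and binding was not measured.

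**Figure D1:**
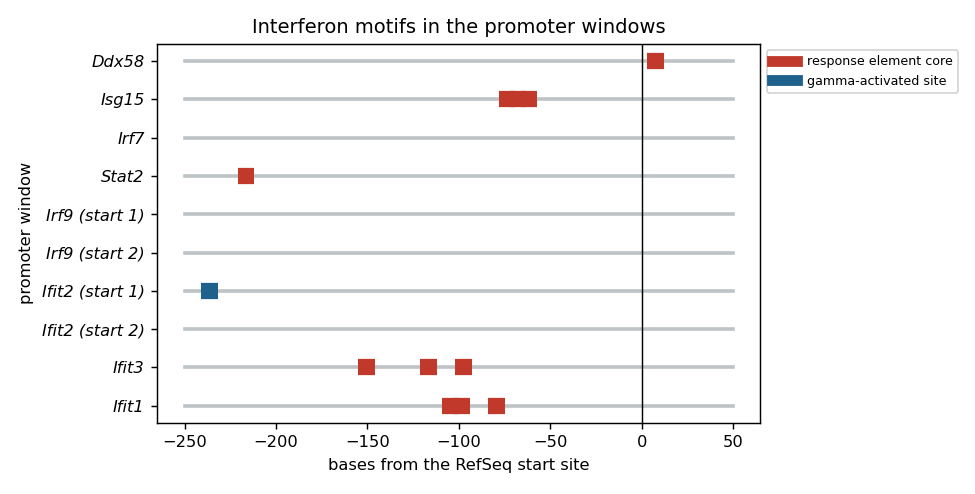
Matches to the response element core (red) and to the gamma-activated site (blue) in 10 RefSeq promoter windows of 8 interferon-stimulated genes, by distance in bases from the start site at 0. Ifit1, Ifit3 and Isg15 hold 3 core matches each, and the windows of Irf7 and Irf9 hold no match to either motif.

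Exonic counts per library ran from 10369374 to 19690198 in 4sU RNA and from 31058706 to 54075687 in total RNA. Zc3h10, the targeted gene, stood at 14.9 ± 3.34 CPM in 4sU RNA labelled shZc3h10 (SD, n = 3) and 20.8 ± 0.987 CPM in 4sU RNA labelled scramble (n = 2), where CPM are counts relative to the normalised library size. This difference was not called in exons (edgeR adjusted p = 0.128) or introns (0.0842). In total RNA it went against the labels, at 86.1 ± 24.0 CPM under the label shZc3h10 and 42.0 ± 11.6 CPM under the label scramble (n = 3 each). There it was called in introns (1.07 on the log2 scale, edgeR adjusted p = 0.0325) and not in exons (1.04, edgeR adjusted p = 0.0522). The file names of all 6 total RNA libraries name the opposite hairpin to their labels. Groups were kept as labelled, so each direction in total RNA holds for the libraries labelled with a hairpin, and every hairpin difference in total RNA below changes sign if the file names are followed. Myoblast identity was checked with 7 markers, all above 1 CPM on average in every group. Of 5 myotube markers (Myog, Myh3, Myh8, Ckm and Tmem8c), all but Ckm passed 1 CPM on average in both groups of 4sU RNA. All 5 passed it in both groups of total RNA. Among 4sU libraries the 5 summed to 137 to 153 CPM (shZc3h10) and 147 to 175 CPM (scramble). Among total libraries the sums were 144 to 194 CPM (label shZc3h10) and 119 to 156 CPM (label scramble). Whether the cells had begun to form myotubes was not tested. None of the 4 endothelial markers passed 1 CPM on average in any group, and dendritic and lymphoid markers summed to at most 1.88 CPM in a library. Macrophage markers summed to at most 30.4 CPM in 4sU RNA and 5.51 CPM in total RNA. Most of the sum in 4sU RNA came from Cd68, a lysosomal protein gene, and Itgam and Csf1r also passed 1 CPM there, at 3.51 and 3.79 CPM under shZc3h10 and 2.65 and 2.11 CPM under scramble. Adgre1, Lyz2 and Ptprc did not pass it, and Ptprc, which marks blood cells, stood at or under 0.392 CPM on average in every group. Of the 5 dendritic and lymphoid markers, 1 passed 1 CPM on average in 4sU RNA labelled shZc3h10 and 0 did in any other group. Cd3e, Itgax and Ncr1 were at 0 in 4sU RNA labelled scramble, and Ncr1 was at 0 in total RNA labelled shZc3h10.

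Both hairpin groups held RNA of all 9 genes, at levels that ran from 1 to 3953 exonic counts in a library. The sensor gene Ddx58 had 252, 172 and 245 exonic counts in 4sU libraries 1 to 3 under shZc3h10 and 299 and 197 under scramble. In total RNA it had 1157, 1567 and 1000 counts under shZc3h10 and 1610, 1128 and 1493 under scramble. Normalised, this was 17.0 ± 0.979 and 14.8 ± 0.475 CPM in 4sU RNA, and 27.2 ± 4.37 and 31.0 ± 4.42 CPM in total RNA. Ddx58 was thus well measured with either hairpin.

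Among the factors, Stat2 and Irf9, whose products act in 1 complex, were above Irf7 by counts and, as given below, per length. The distance was wide in 4sU RNA and smaller in total RNA. In total RNA labelled shZc3h10, Stat2 and Irf9 stood at 2.03 and 1.82 CPM per kb of exon, and Irf7 at 0.841. Stat2 stood at 32.4 ± 1.65 CPM (shZc3h10, n = 3) and 33.2 ± 1.14 CPM (scramble, n = 2) in 4sU RNA, and at 8.91 ± 2.34 and 9.22 ± 1.97 CPM in total RNA (n = 3 each). Irf9 stood at 17.1 ± 2.45 and 17.4 ± 1.27 CPM in 4sU RNA and at 5.64 ± 1.05 and 7.46 ± 1.40 CPM in total RNA. Irf7 had 17, 27 and 26 counts under shZc3h10 and 26 and 17 under scramble in 4sU RNA, and 85 to 122 counts in total RNA. Its level was 1.85 ± 0.658 and 1.28 ± 0.0481 CPM in 4sU RNA and 2.01 ± 0.253 and 2.32 ± 0.322 CPM in total RNA. Stat2 counts are uncertain in that the gene overlaps Apof, an apolipoprotein gene, in RefSeq, and the use of strand in counting is not given in the sources used here.

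The effectors differed most among themselves, with Ifit2 high and its neighbours on chromosome 19 low, by counts as per length. Ifit2 had 225, 122 and 242 counts under shZc3h10 and 370 and 270 under scramble in 4sU RNA, and 2539, 3953 and 2554 against 2141, 1311 and 1577 in total RNA. Ifit1 had 29 to 36 counts in the 5 libraries of 4sU RNA. In total RNA it had 39, 25 and 34 counts under shZc3h10 and 58, 33 and 64 under scramble. Ifit3 had 6, 1 and 4 counts under shZc3h10 and 6 and 5 under scramble in 4sU RNA, and 2, 7 and 5 against 8, 6 and 17 in total RNA. A count of 3, the limit that a count of 0 would allow, equals 0.152 to 0.289 CPM in the 4sU libraries, so Ifit3 was at the edge of detection with both hairpins. Ifit1 overlaps Ifit1bl1 in RefSeq, which had 0 to 8 counts, and Ifit3 has a close copy, Ifit3b, with 0 to 10 counts, so reads of these genes may be split.

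Isg15 and Parp14 lay between these extremes. Isg15 had 33, 38 and 43 counts under shZc3h10 and 44 and 34 under scramble in 4sU RNA, and 28, 31 and 6 against 59, 16 and 78 in total RNA. Parp14 had 167, 138 and 190 counts under shZc3h10 and 153 and 106 under scramble in 4sU RNA, and 61, 35 and 24 against 110, 81 and 111 in total RNA. Isg15 overlaps the long non-coding gene Gm46878 in RefSeq. Its spread was wide in total RNA, where the library with 6 counts was shZc3h10 library 3 and that with 16 counts was scramble library 2.

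**Figure D2:**
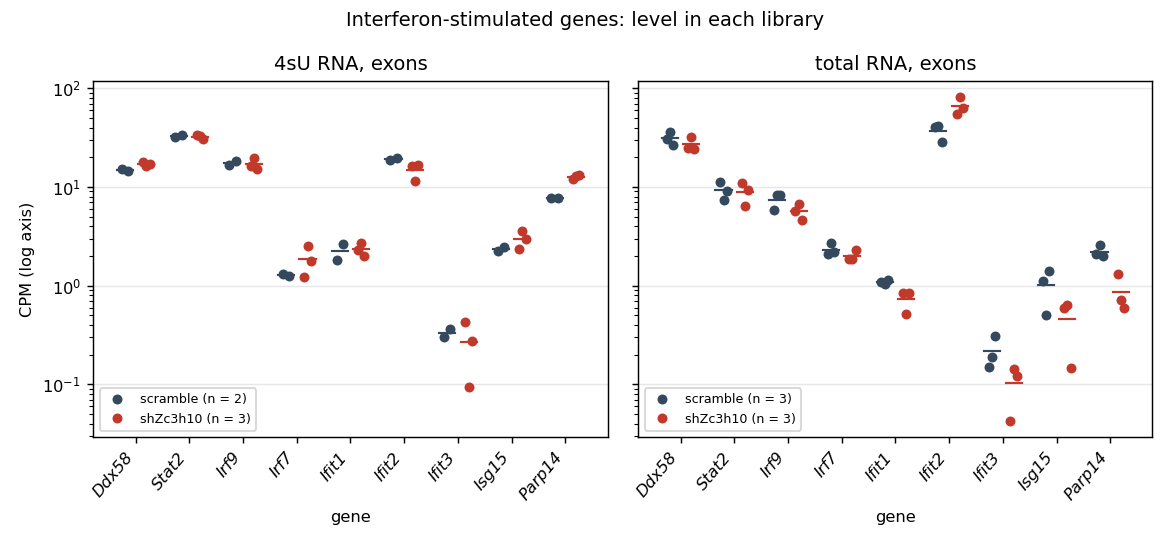
Exonic level of each of the 9 genes in each library, in CPM on a log axis, in 4sU RNA (left) and total RNA (right). Points are libraries and short bars group means, and each kind of RNA was normalised by itself. Parp14 under shZc3h10 sits above scramble in 4sU RNA and below it in total RNA as labelled, Ifit2 does the opposite, and Ifit3 is lowest in both panels.

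Divided by exon length, the order of the genes differed between newly made and total RNA. In 4sU RNA labelled scramble, Stat2 led with 7.55 CPM per kb (n = 2), followed by Irf9 (5.61), Ifit2 (5.04), Ddx58 (3.81), Isg15 (3.12), Parp14 (1.04), Ifit1 (0.839), Irf7 (0.535) and Ifit3 (0.192), and no neighbours in this order overlapped. Under shZc3h10 the order was Stat2 (7.38 CPM per kb, n = 3), Irf9 (5.53), Ddx58 (4.40), Isg15 (3.92), Ifit2 (3.87), Parp14 (1.71), Ifit1 (0.881), Irf7 (0.773) and Ifit3 (0.153). There the libraries of Ddx58, Isg15 and Ifit2 overlapped, and so did those of Ifit1 and Irf7. In total RNA labelled scramble, Ifit2 (9.63 CPM per kb, n = 3) and Ddx58 (8.0) led and overlapped, followed by Irf9 (2.41) and Stat2 (2.10), which also overlapped. Isg15 (1.33) overlapped both Stat2 and Irf7 (0.970), and Ifit1 (0.413), Parp14 (0.298) and Ifit3 (0.124) followed without overlap. In total RNA labelled shZc3h10, Ifit2 stood at 17.3 CPM per kb and Ddx58 at 7.01, without overlap, and Ifit3 was again lowest at 0.0590, overlapping Parp14 (0.117). Lengths are of merged exons in GENCODE M21, not of the gene models used for counting.

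Set against total RNA over both hairpins, newly made RNA held more Parp14, Isg15, Stat2 and Irf9 and less Ifit2, Ddx58 and Irf7. These 7 of 9 genes were called, 4 higher and 3 lower, by the quasi-likelihood test of edgeR, with p adjusted over all genes by Benjamini-Hochberg. The background was high, since 71% of the 15046 genes tested were called in this comparison (35.1% higher and 35.9% lower), so 7 of 9 is near the share of all genes. Normalised over all 11 libraries together, Parp14 ran from 5.80 to 9.71 CPM (median 8.86) in the 5 libraries of 4sU RNA and from 0.749 to 3.20 CPM (median 2.10) in the 6 of total RNA, without overlap. Its log2 fold change was 2.04 (SE 0.22, edgeR adjusted p = 1.89e-07). Ifit2 ran from 8.31 to 14.8 CPM (median 12.4) in 4sU RNA and from 36.0 to 112.1 CPM (median 62.6) in total RNA, again without overlap. The log2 fold change was −2.33 (SE 0.19, edgeR adjusted p = 6.60e-09). Ifit2 and Parp14 thus stood at the 2 ends of the list. Stat2 was higher in 4sU RNA by 1.07 (SE 0.17) and Irf9 by 0.62 (SE 0.18) on the log2 scale, both without overlap, while the libraries of Isg15 overlapped (1.13, SE 0.35). Ddx58 fell by 1.66 (SE 0.16) and Irf7 fell by 1.28 (SE 0.25) on that scale, each without overlap. The share of all genes without overlap between the 2 kinds of RNA was not counted. Ifit1 stood at 0.56 (95% interval 0.02 to 1.10, edgeR adjusted p = 0.0593) and Ifit3 at 0.22 (−0.92 to 1.36), neither called. The 7 calls were made in each of 11 fits that left out 1 library. Part of each harvest went to each kind of RNA, so libraries of both kinds may share cultures, which the fit does not use. As total RNA was depleted of rRNA and 4sU RNA was selected on streptavidin, the kind of RNA and its preparation cannot be told apart.

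**Figure D3:**
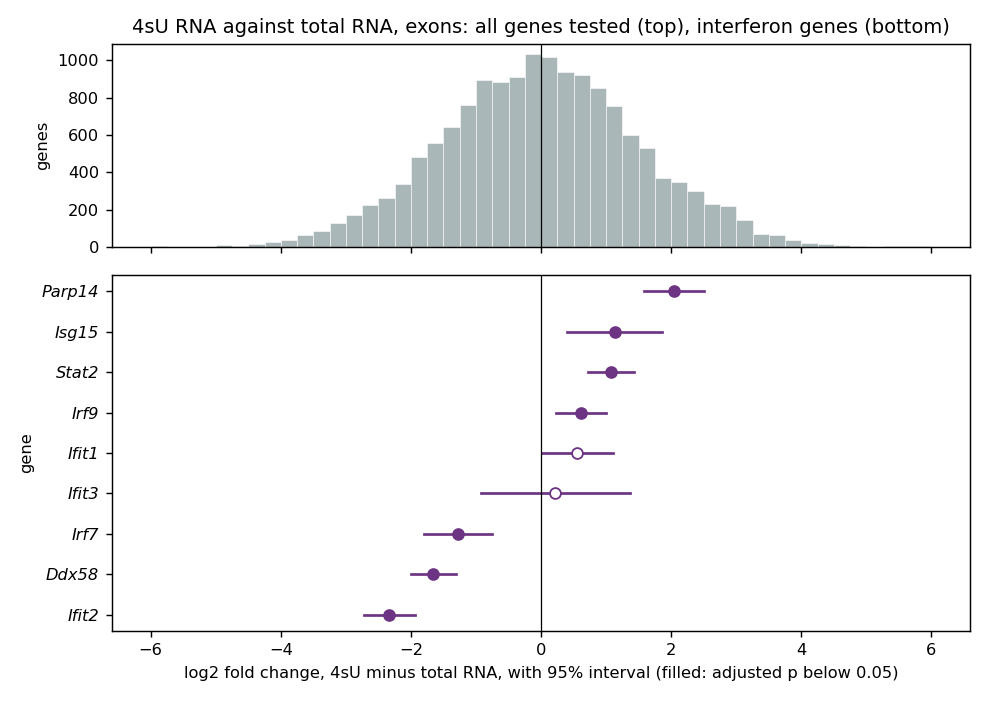
Log2 fold change of 4sU RNA over total RNA for exons, averaged over both hairpins, as the number of genes per bin for all 15046 genes tested (top, values beyond 6 placed in the last bins) and for the 9 interferon-stimulated genes with 95% intervals (bottom). Filled points have an adjusted p below 0.05, and the genes run from Parp14 at 2.04 to Ifit2 at −2.33.

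RNA of the receptor genes was also present. Ifnar1 and Ifnar2, for the 2 receptor chains, stood at 133 and 35.1 CPM in 4sU RNA labelled shZc3h10 and 124 and 42.9 CPM in that labelled scramble. The genes for the interferons themselves were at the edge of detection: none of 11 had more than 7 exonic counts in any library, and Ifnb1 had 2 counts in 1 library and 0 in the other 10. Of common interferon targets that are no members, Mx1 stood at 1.13 and 1.25 CPM, Usp18 at 0.788 and 0.239 CPM and Cxcl10 at 0.274 and 0.236 CPM in 4sU RNA labelled shZc3h10 and scramble. Over exons, the shZc3h10 means of Usp18 and Cxcl10 rest on library 2, at 1.60 and 0.751 CPM. The other shZc3h10 libraries stood at 0.287 and 0.483 CPM for Usp18 and at 0.0718 and 0 CPM for Cxcl10. Introns of Usp18 stood at 0.945, 2.01 and 1.29 CPM under shZc3h10 and 0.603 and 0.729 CPM under scramble. This intron difference was not called (1.08 on the log2 scale, edgeR adjusted p = 0.203).

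Introns gave a second reading for the genes whose introns were counted. Ifit1, Ifit2 and Ifit3 were listed at 0 intronic counts in all 11 libraries, Isg15 had 0 to 3, and Irf7 had 2 to 12. Stat2 had 742 to 1532 intronic counts in 4sU RNA, which was 67.2 ± 3.09% (shZc3h10, n = 3) and 68.7 ± 2.54% (scramble, n = 2) of all its counts, and 22.5 ± 5.21% and 21.6 ± 5.21% in total RNA (n = 3 each). In Ddx58 introns held 55.1 ± 3.52% and 50.8 ± 0.725% in 4sU RNA and 6.06 ± 1.68% and 6.44 ± 2.32% in total RNA. Both genes thus had a much higher intron share in newly made RNA, as had all genes summed (71.0% and 68.1% in 4sU RNA, 11.9% and 17.8% in total RNA). Parp14 was unlike them: its intron share was 41.2 ± 5.05% (shZc3h10) and 29.5 ± 4.27% (scramble) in 4sU RNA and 37.4 ± 13.1% and 32.5 ± 2.58% in total RNA. The shares in total RNA rest on 11 to 61 intronic counts per library. Irf7, at its low counts, also differed little, with 12.1 ± 6.21% and 8.83 ± 2.39% in 4sU RNA and 9.49 ± 3.57% and 5.61 ± 3.40% in total RNA. Irf9 introns held 6.76 ± 0.865% and 8.36 ± 1.04% in 4sU RNA and at most 2.22% in every library of total RNA.

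Between the hairpins, Parp14 rose in newly made RNA and no other gene of the 9 was called there. Its exons stood at 12.0, 13.0 and 13.1 CPM under shZc3h10 and 7.73 and 7.76 CPM under scramble. The groups did not overlap, and the log2 fold change was 0.71 (SE 0.20, edgeR adjusted p = 0.0270), a fold of 1.64. Its introns stood at 3.75, 4.28 and 3.08 CPM under shZc3h10 and 1.28 and 1.69 CPM under scramble, a log2 fold change of 1.32 (SE 0.34, edgeR adjusted p = 0.0183) and a fold of 2.50. All 3 libraries with the Zc3h10 hairpin were above both scramble libraries in exons and in introns. Groups did not overlap in 45.5% of all genes tested over introns of 4sU RNA, and that share was not counted over exons. In bulk RNA, a change in the number of cells that express a gene and a change in RNA per cell cannot be told apart. The exon call was lost without shZc3h10 library 3 (edgeR adjusted p = 0.0788), scramble library 1 (0.159) or scramble library 2 (0.10), and by DESeq2 (0.0510), while the log2 fold change stayed between 0.69 and 0.75 with any library left out. The intron call was lost without shZc3h10 library 1 (edgeR adjusted p = 0.0660) or scramble library 1 (0.164), with values of 1.13 to 1.49.

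The other genes showed small differences in 4sU RNA. Of 8 genes tested over exons, Ifit3 being under the count filter, 1 rose and 0 fell, against 5.66% of 13637 genes that rose and 4.69% that fell (10.4% in all), and the median log2 fold change was 0.14, against −0.00 for all genes tested. Ifit2 stood at 16.1, 11.4 and 16.7 CPM under shZc3h10 and 18.7 and 19.8 CPM under scramble, so every shZc3h10 library was lower. Its log2 fold change was −0.37 (95% interval −0.77 to 0.03, edgeR adjusted p = 0.260). Ddx58 stood higher in all 3 shZc3h10 libraries, at 0.21 (−0.17 to 0.58). Stat2 (−0.03, −0.36 to 0.29), Irf9 (−0.02, −0.41 to 0.36) and Ifit1 (0.08, −0.71 to 0.87) overlapped between groups. So did Isg15 (0.33, −0.41 to 1.06) and Irf7 (0.51, −0.47 to 1.48), for which low counts left wide intervals. Of 4 genes tested over introns, Parp14 alone was called, against 15.5% of 13553 genes (8.95% higher and 6.57% lower). Introns of Ddx58 stood at 8.71 ± 0.446 and 6.96 ± 0.0950 CPM (0.32, −0.06 to 0.71), those of Stat2 at 27.7 ± 2.40 and 33.3 ± 3.14 CPM (−0.27, −0.53 to 0.00) and those of Irf9 at 0.516 and 0.727 CPM, with no overlap between groups in any of the 4, as in 45.5% of all genes tested there. Markers of the myoblasts moved with the hairpin: their 7 genes summed to 1376 to 1482 CPM under shZc3h10 and 1999 to 2014 CPM under scramble. This was mostly Itga7, an integrin gene, at 460.3 and 997 CPM, and 3 of the 7 were called lower and 0 higher in exons, while Pax7 was called higher in introns (0.49, edgeR adjusted p = 0.00295). Macrophage markers summed to 25.1 to 30.4 CPM under shZc3h10 and 26.3 to 30.1 CPM under scramble. Their median log2 fold change was 0.41 over 3 tested in exons and 0.73 over 5 tested in introns. In exons edgeR called 0 of them (1 at an unadjusted p below 0.05) and DESeq2 0, and in introns edgeR called 0 (2 at an unadjusted p below 0.05) and DESeq2 1. The part of these markers in the values of Parp14 or the other genes was not tested.

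In total RNA the 2 genes with the largest differences by p were again Parp14 and Ifit2, with signs opposite to those in 4sU RNA under the labels and the same signs if the file names are followed. Parp14 stood at 1.31, 0.719 and 0.588 CPM under the label shZc3h10 and 2.08, 2.56 and 2.00 CPM under the label scramble. Every library labelled shZc3h10 was lower, with a log2 fold change of −1.34 (SE 0.38, 95% interval −2.15 to −0.52, edgeR adjusted p = 0.0503). Ifit2 stood at 54.4, 81.2 and 62.6 CPM under shZc3h10 and 40.5, 41.4 and 28.4 CPM under scramble. Here every library labelled shZc3h10 was higher, at 0.84 (SE 0.27, 0.26 to 1.43, edgeR adjusted p = 0.0708). The share of all genes without overlap between groups was not counted in total RNA. Parp14 and Ifit2 both lay just outside the threshold of 0.05. DESeq2 called them at adjusted p = 0.0284 and 0.0177, and edgeR called Parp14 when no filter on low counts was used (0.0205) or without shZc3h10 library 1 (0.0444), and Ifit2 without scramble library 2 (0.0324).

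Over the 8 genes tested in exons of total RNA, edgeR called 0, against 6.42% of 13846 genes (3.06% higher and 3.36% lower), while 2 had an unadjusted p below 0.05 and DESeq2 called 2. The median was −0.30, against −0.10 for all genes tested. Isg15 stood at 0.461 ± 0.273 CPM under shZc3h10 and 1.01 ± 0.459 CPM under scramble (−1.13, 95% interval −2.28 to 0.02), with overlap. Ifit1 stood at 0.727 ± 0.185 and 1.10 ± 0.0542 CPM without overlap (−0.60, −1.42 to 0.23). Irf9 (−0.40, −1.01 to 0.21), Irf7 (−0.20, −0.87 to 0.47), Ddx58 (−0.19, −0.73 to 0.35) and Stat2 (−0.05, −0.68 to 0.57) overlapped. Of 3 genes tested over introns edgeR called 0, against 5.18% of 13877 genes (3.08% higher and 2.1% lower), and 0 had an unadjusted p below 0.05: Parp14 (−0.71, −1.75 to 0.33), Stat2 (0.34, −0.31 to 0.99) and Ddx58 (0.02, −0.70 to 0.74). DESeq2 called 0 of them as well. Myoblast markers summed to 3375 to 4114 CPM in total RNA labelled shZc3h10 and 1727 to 2588 CPM in that labelled scramble, and their part in these differences was not tested.

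**Figure D4:**
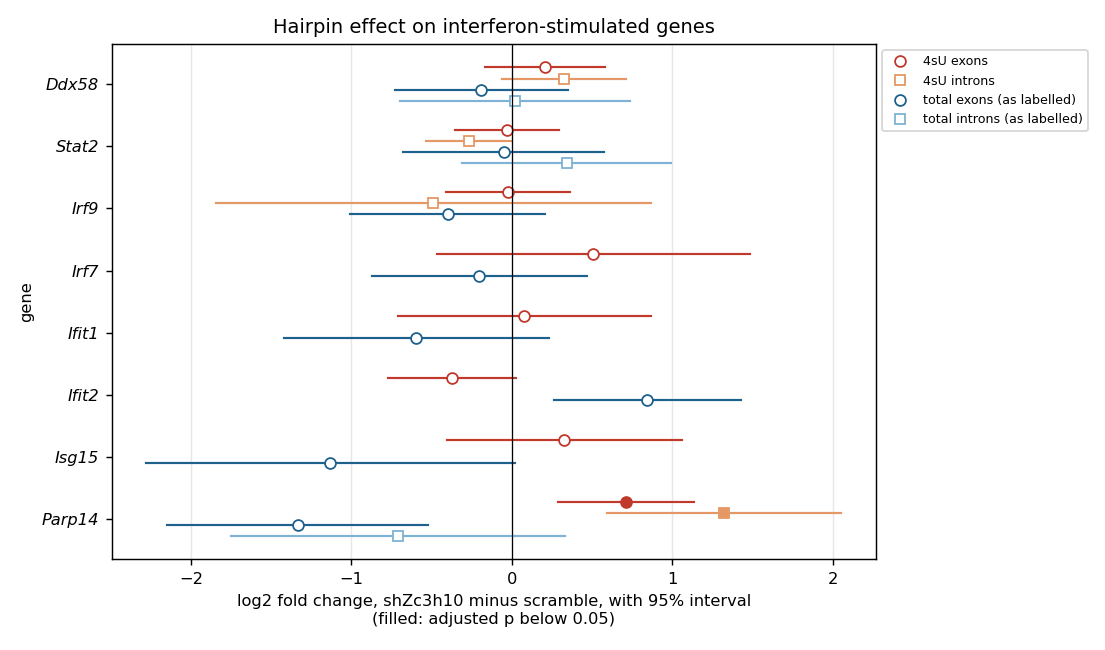
Log2 fold change, shZc3h10 minus scramble as labelled, with 95% interval, for the interferon-stimulated genes tested in exons (circles) and introns (squares) of 4sU RNA (red and orange) and total RNA (dark and light blue). Filled points have an adjusted p below 0.05, which only Parp14 in 4sU RNA reaches (0.71 in exons, 1.32 in introns), and in total RNA Parp14 lies at −1.34 and Ifit2 at 0.84.

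The hairpin difference itself was compared between the kinds of RNA in 1 fit of all 11 libraries, and the result turned on the labels of the total RNA libraries. With these as given, of 9 genes tested, Parp14 and Ifit2 were called, 1 each way, against 14.1% of 15046 genes (5.55% positive and 8.56% negative). For Parp14 the difference in 4sU RNA exceeded that in total RNA by 1.89 on the log2 scale (SE 0.44, 95% interval 0.97 to 2.81, edgeR adjusted p = 0.00761). For Ifit2 it was −1.38 (SE 0.34, −2.10 to −0.65, edgeR adjusted p = 0.0120). Parp14 kept its call in each of 11 fits that left out 1 library (adjusted p 0.00180 to 0.0472), and Ifit2 lost it without scramble library 1 (0.0570) or 2 (0.0614) of 4sU RNA. The genes not called were Isg15 (1.30, −0.19 to 2.78), Ifit3 (0.66, −1.63 to 2.95), Irf7 (0.57, −0.46 to 1.60), Ifit1 (0.53, −0.55 to 1.61), Ddx58 (0.24, −0.42 to 0.90), Irf9 (0.23, −0.54 to 1.00) and Stat2 (−0.13, −0.85 to 0.59). Zc3h10 itself stood at −1.68 (SE 0.38, edgeR adjusted p = 0.00677) in this comparison. With the labels of the total RNA libraries exchanged, as their file names have them, an alternative chosen after seeing the data, edgeR called 0 of the 9 genes (0 at an unadjusted p below 0.05). Of the 9, DESeq2 gave an adjusted p only to Ddx58 (0.890) and Ifit2 (0.422) and called neither. It gave none to Parp14, so it could not have called that gene. Parp14 then stood at −0.53 (SE 0.43, 95% interval −1.44 to 0.37, edgeR adjusted p = 0.642), Ifit2 at 0.56 (SE 0.35, −0.17 to 1.29, edgeR adjusted p = 0.535) and Zc3h10 at 0.65 (SE 0.39). Over all 15046 genes edgeR called 0% with the labels exchanged (0 genes, 1707 at an unadjusted p below 0.05, and 23 called by DESeq2), against 2123 genes as labelled (4270 at an unadjusted p below 0.05, and 2493 called by DESeq2).

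Other genes of the interferon pathway were taken from 9 lists by role, 116 symbols of which 115 were in the files. In exons of 4sU RNA, 11 of 86 tested rose and 1 fell, 14.0% in all against 10.4% of all genes (5.66% higher and 4.69% lower), with a median of 0.23, against −0.00 for all genes tested. This count was 5 without shZc3h10 library 3 and 4 without either scramble library. Of 7 receptor and kinase genes, 1 rose: Jak2, for a kinase of the interferon-gamma receptor, stood at 75.5 ± 1.69 CPM under scramble (n = 2) and 164.6 ± 16.2 CPM under shZc3h10 (n = 3), or 1.12 on the log2 scale (SE 0.15, edgeR adjusted p = 2.37e-05). Of 35 other antiviral effectors 7 rose and 0 fell, among them Uba7, for the enzyme that activates ISG15, at 1.05 (SE 0.24, edgeR adjusted p = 0.180 without scramble library 1). Of 10 antigen processing genes 1 rose and 1 fell. Tap2, a peptide transporter gene, stood at 6.69 ± 0.230 CPM under shZc3h10 and 2.89 ± 0.982 CPM under scramble (1.18, SE 0.28, edgeR adjusted p = 0.108 without scramble library 2). Nlrc5, for an activator of the genes of that pathway, fell from 11.4 ± 0.816 to 4.59 ± 1.42 CPM (−1.33, SE 0.25). Jak2 and Nlrc5 kept their calls with any 1 library left out.

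The remaining lists in exons of 4sU RNA held few calls. Of 9 GTPase genes 1 rose and 0 fell (median 0.45) by edgeR, where DESeq2 called 0, of 6 feedback inhibitors 1 rose and 0 fell, and of 13 sensors and adaptors and 5 transcription factors edgeR called 0, where DESeq2 called 0 and 1. Among those 13 and 5 genes, 0 and 3 had an unadjusted p below 0.05, and the factor list had a median of 0.37. Over introns 9 of 76 pathway genes rose and 3 fell, 15.8% in all, near the 15.5% of all genes. These 12 calls became 6 without shZc3h10 library 1, 5 without shZc3h10 library 3, 3 without scramble library 1 and 4 without scramble library 2.

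In exons of total RNA, 2 of 89 pathway genes were higher and 5 lower in the libraries labelled shZc3h10 (7.87% in all, against 6.42% of all genes), with a median of −0.25, against −0.10 for all genes tested. Jak2 was lower there (−1.32, SE 0.27, edgeR adjusted p = 0.0115), a call lost without scramble library 3 (0.0812). Tap1, the partner of Tap2, was also lower (−1.63, SE 0.36), a call lost in 4 of 6 fits with adjusted p up to 0.106 without scramble library 1. Nlrc5 was higher (1.11, SE 0.31, edgeR adjusted p = 0.0496), a call lost in 5 of 6 such fits. The count of 7 became 20 without scramble library 2, 0 without scramble library 3, 1 without scramble library 1, and 1, 3 and 2 without shZc3h10 library 1, 2 and 3. In introns of total RNA 1 of 73 was higher (1.37%, against 5.18% of all genes), Mavs, for the adaptor that relays the RIG-I signal (1.04, SE 0.23, edgeR adjusted p = 0.0170). Its call was lost in 3 of 6 fits, with adjusted p up to 0.107 without scramble library 1. In the fit over both kinds of RNA, 12 of 94 pathway genes had a positive difference between the hairpin effects and 4 a negative one (17.0% in all, against 14.1% of all genes). These 16 calls became 9 without shZc3h10 library 3, 7 and 8 without scramble library 1 and 2 of 4sU RNA, and 26 without scramble library 2 of total RNA. Jak2 (2.30, SE 0.34) and Nlrc5 (−2.58, SE 0.41) were called in each of 11 fits that left out 1 library. With the labels of the total RNA libraries exchanged they stood at −0.12 (SE 0.33, edgeR adjusted p = 0.918) and −0.13 (SE 0.42, edgeR adjusted p = 0.927), and edgeR called 0 of the 94 pathway genes.

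**Figure D5:**
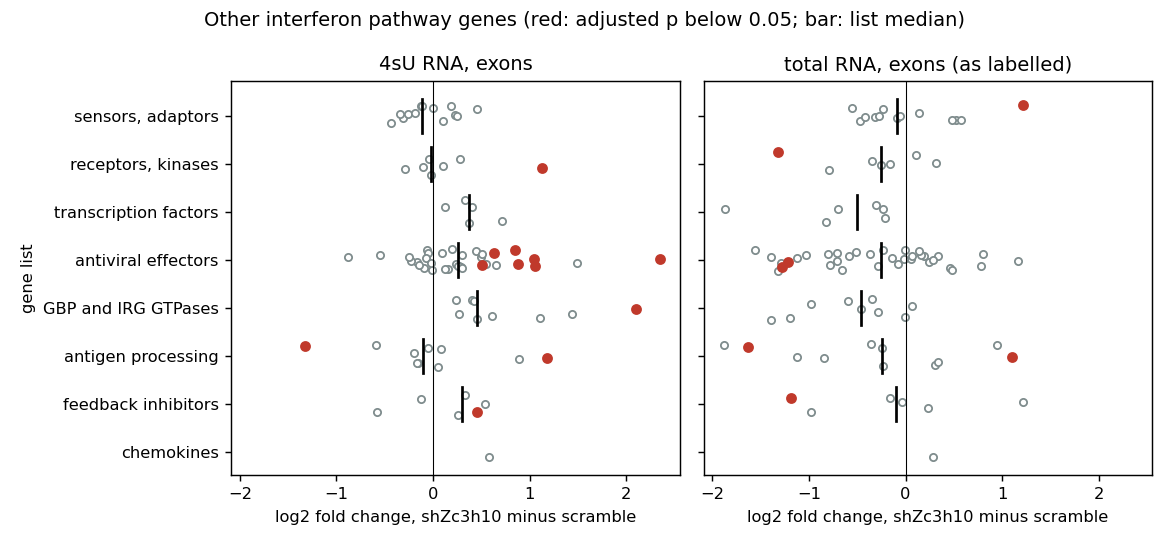
Log2 fold change, shZc3h10 minus scramble as labelled, of other interferon pathway genes by list, in exons of 4sU RNA (left) and total RNA (right). Each point is a gene, red where the adjusted p is below 0.05, and the vertical bar is the list median, with 11 genes higher and 1 lower called on the left and 2 higher and 5 lower on the right.

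The 9 genes did not move as 1 block across libraries. Levels were centred within each kind of RNA, and each of the 8 genes that pass the filter was set against the mean of the other 7. Parp14 followed the others most closely (Pearson r = 0.88, Spearman rho = 0.84, over 11 libraries), followed by Isg15 (0.54), Ifit1 (0.52) and Irf9 (0.48). Ifit2 ran against them (r = −0.89, rho = −0.91), and Stat2 (−0.17), Ddx58 (0.22) and Irf7 (0.23) showed little relation. Of 13063 genes compared with the mean of all 8, the 5 most alike were Bcl3 (r = 0.94), Nod1 (0.94), Rnf130 (0.94), Smad9 (0.94) and Slc2a3 (0.93). These libraries fall into 4 groups and share depth and preparation within each kind of RNA, so the values describe these 11 libraries only.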

How the data were processed

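RNA was measured in 11 libraries of C2C12 cells. The deposited files hold raw read counts per gene over exons and over introns, made by the authors. The submitters' processing notes name TopHat2 2.0.8, TopHat and mouse build mm9. How reads were assigned to genes, with which annotation and strand setting, is not given in the sources used here. Rows without a symbol, 85 in the exon files and 63 in the intron files, carry an Entrez identifier and were kept. The intron and exon files were normalised separately.

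Genes passed filterByExpr at 10 counts per library and 15 in total. Library sizes were scaled by TMM, the trimmed mean of log ratios, and the test was the quasi-likelihood test of edgeR 4.0.16, under R 4.3.3. Adjusted p-values (Benjamini-Hochberg, over all genes tested) are called below 0.05. Standard errors (SE) come from the F statistic and intervals are at 95%. The share of all genes whose groups do not overlap was counted only for introns of 4sU RNA. Each kind of RNA was fitted by itself, and 1 fit of 4 group means gave 4sU against total RNA and the difference of the hairpin differences. The tests were checked on simulated data, in which no gene of low level was changed. Each changed gene moved by more than Parp14 did between hairpins in 4sU RNA. Smaller changes, genes at low counts and fits with 1 scramble library were not covered by that check. Alternatives were DESeq2 1.42.0 with its size factors, those size factors in edgeR, no filter, the replicate number as a block, each library left out, and, chosen after seeing the data, the labels of the total RNA libraries exchanged. Where 1 scramble library of 4sU RNA remains, it is assumed to vary as the other group does.

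The 9 genes and the pathway and marker lists were chosen with earlier results of these data known. The rule for named genes takes all 9 members, up to 3 called genes each way per pathway list, of which a part is named, Ifnb1, Ifnar1, Ifnar2, Mx1, Usp18 and Cxcl10 at any call, and the 5 most alike genes. Some genes that the rule takes are not reported here. Likeness is Pearson's r of log2(CPM + 0.1), with the mean taken over standardised members. Whether replicates were separate cultures is not in the labels, so the p-values cover the spread between libraries, which may be technical. Promoter sequence is from RefSeq on GRCm38.p6, another build than the files use, and was matched by symbol only.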

Additional observations from a re-analysis of the deposited data

Results flagged for a closer look

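As labelled, the hairpin difference was not the same in newly made and in total RNA for 2 of the 9 genes, by the test of the difference itself in edgeR's fit of all 11 libraries. These are 22.2% of the 9, against 14.1% of all 15046 genes called in that fit. For Parp14 the difference in 4sU RNA minus that in total RNA was 1.89 on the log2 scale (edgeR adjusted p = 0.00761): all 3 shZc3h10 libraries were above both scramble libraries in 4sU RNA, and all 3 were below all 3 scramble libraries in total RNA. For Ifit2 the value was −1.38 (edgeR adjusted p = 0.0120), with every shZc3h10 library below scramble in 4sU RNA and above it in total RNA. How many of all genes separate in this way over exons was not counted. Both values rest on the labels of the total RNA libraries, where Zc3h10 goes against the labels and all 6 file names carry the other hairpin. With the labels exchanged, Parp14 stood at −0.53 (edgeR adjusted p = 0.642) and Ifit2 at 0.56 (edgeR adjusted p = 0.535), so neither difference was called, and edgeR called 0 of all 15046 genes in place of 2123.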

How the results depend on the processing

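Over exons of 4sU RNA edgeR called 1412 genes (809 with the replicate number as a block, 724 to 1734 with 1 library left out), and of the 9 genes 1 (0 by DESeq2 and with the block, 0 to 1 with 1 library left out). Over introns of 4sU RNA it called 935 to 2586 genes and 0 to 1 of the 9 with 1 library left out. Over exons of total RNA the count was 889, but 1591 without a filter, 1890 by DESeq2, 100 with the block and 161 to 2588 with 1 library left out, and of the 9 genes it was 1 without a filter, 2 by DESeq2 and 0 to 1 with 1 library left out. Over introns of total RNA it was 719, but 1165 by DESeq2, 217 with the block and 217 to 1048 with 1 library left out. The difference of hairpin differences had 1029 to 3246 genes and 1 to 2 of the 9 with 1 library left out. Of the pathway genes 5 and 6 were called with the block in exons and introns of 4sU RNA, in place of 12 each, and in exons of total RNA 16 without a filter, 15 by DESeq2 and 0 with the block, in place of 7. In introns of total RNA it was 2 with DESeq2's size factors or without a filter, 5 by DESeq2, 0 with the block and 0 to 6 with 1 library left out, in place of 1. With the labels of the total RNA libraries exchanged, chosen after seeing the data, the difference of hairpin differences had 0 genes, 0 of the 9 and 0 pathway genes called, and its sign turned for Parp14 (−0.53), Ifit2 (0.56), Ifit1 (−0.44), Ifit3 (−1.24), Isg15 (−0.70), Irf9 (−0.34), Stat2 (0.0021), Jak2 (−0.12) and Tap1 (−0.65). Under the other alternatives signs turned only for values that were not called. Stat2 in 4sU exons stood at 0.0085 with the block and −0.067 to 0.017 with 1 library left out, Irf9 at 0.052 with the block and −0.13 to 0.063, and Ifit1 at −0.18 to 0.37. In total RNA Stat2 exons stood at 0.018 with DESeq2's size factors, 0.016 by DESeq2 and −0.23 to 0.14 with 1 library left out, and Ddx58 introns at −0.0047 by DESeq2 and −0.17 to 0.18. With 1 library left out, Ifit3 against total RNA ran from −0.029 to 0.40 and Stat2 in the difference of differences from −0.30 to 0.067. The cause was not tested. Without that exchange, of 478 refits of 41 values of the 9 genes, 445 kept direction and side of the threshold and 19 turned sign. Same-numbered libraries did not all deviate together, so the numbers were not taken as pairs. Between hairpins r was −0.126 in 4sU RNA and 0.169, −0.196 and −0.223 in total RNA. Between 4sU and total RNA it was 0.239 under scramble and 0.0847, 0.0152 and −0.0543 under shZc3h10. The values −0.126 and 0.239 are 1 reading each, since only libraries 1 and 2 could be compared there and their deviations mirror each other. With the block, Parp14 in 4sU exons stood at 0.68 (edgeR adjusted p = 0.127). Other scaling moved the median of all genes by at most 0.065. Depth limits Ifit3, Ifit1, Isg15 and Irf7, whose intervals are wide, and 2 scramble libraries limit every call in 4sU RNA.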
